A study of Mus musculus with 96 samples.

Results

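Lateral olivocochlear (LOC) neurons of the mouse lateral superior olive (LSO) were divided by whether they needed injected current to fire. Of 30 neurons labelled as delayed-firing LOCs, 28 were compared. In 18 of them the rheobase was listed as 0 pA, which means that action potentials (APs) occurred without injected current. In the other 10 it was 50 pA or more. The groups were thus chosen by the rheobase label, and the rheobase is not a result here. It was 50 pA in 9 of the 10 neurons with positive rheobase and 300 pA in cell_57. Rheobase was approximated with 200-ms steps of 50 pA, so most of the groups lay 1 step apart. The rule left out cell_78 and cell_85, both at 0 pA, and values with them are given where they change a call or turn a difference.

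The study recorded LSO neurons in acute brainstem slices of C57BL/6J mice of both sexes at about postnatal day 11, aspirated the cytoplasm and sequenced it (Patch-seq). The series holds 86 neurons and 10 negative controls, for which a pipette touched the slice and was processed like a sample. Besides the LOCs there were 44 Onset and 12 Sustained principal LSO neurons (pLSOs), whose rheobase lay between 150 and 850 pA. No genotype or drug distinguished the groups. No label names the animal of a neuron, so each group counts as 1 sample. Therefore no test was run, and spreads and intervals over neurons describe these neurons.

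LOC neurons are cholinergic and peptidergic efferents that project to the cochlea and end on the dendrites of auditory nerve fibers below the inner hair cells. Whether a neuron fires at rest depends on the balance of inward and outward currents near threshold. Known inward carriers are the sodium leak channel NALCN with its partner proteins, voltage-gated sodium channels that open below threshold, T-type calcium channels and HCN channels. Two-pore-domain and Kv7 potassium channels carry opposing outward current.

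Transcript levels are given as TPM, a read abundance scaled to gene length and library total, rounded to whole numbers in the table. A gene was counted as detected at 1 TPM or more. Differences are given as zero minus positive rheobase, for the share of neurons with the gene (in percentage points) and for the mean of log2(TPM + 1). The number of reads behind a value is unknown.

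A median of 2290 genes (1175 to 3624) was detected per neuron at zero rheobase and of 2424 genes (1797 to 4408) at positive rheobase. The means were 2372 ± 682 (SD, n = 18) and 2805 ± 868 (SD, n = 10). The ranges overlapped, but the library with most detected genes, cell_82, was of the group with positive rheobase. The negative controls had 285 to 3104 detected genes. Calca, the gene of the peptide CGRP and the leading LOC marker here, was detected in 26 of the 28 neurons. Spp1, a pLSO marker, was at 0 in 27 neurons and at 1 TPM in 1. The 2 neurons without Calca were cell_57 (positive, 300 pA) and cell_76 (zero). These libraries also lacked Ucn and Isl1 and held 2 of 12 LOC markers in the table, against 4 to 11 in the other 26. Their LOC label is therefore not borne out by these markers. The study, however, clustered all neurons by their transcriptome and reported that clusters and firing patterns matched completely. The pLSO markers summed to 2 TPM in cell_57 and 1 TPM in cell_76. Both neurons are included below, and results that change without them are named.

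**Figure D1:**
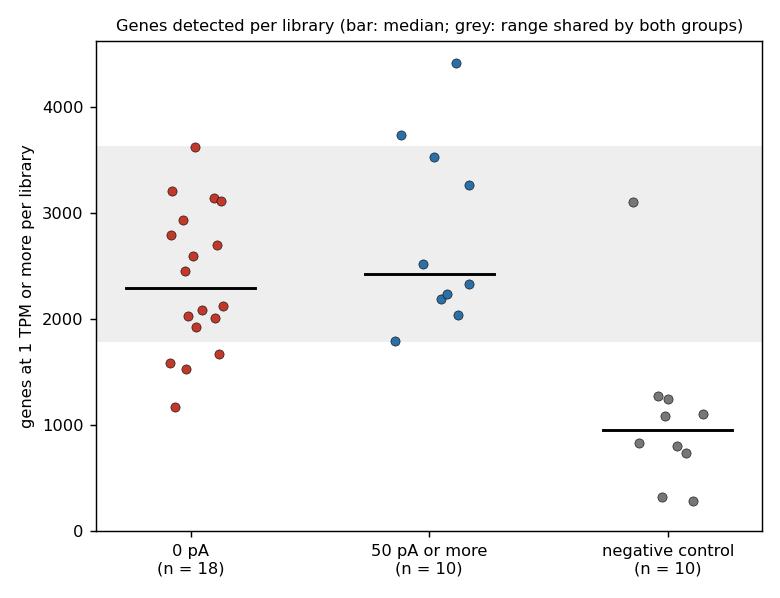
Number of genes at 1 TPM or more per library (vertical axis) in LOC neurons with a rheobase of 0 pA (n = 18), LOC neurons with 50 pA or more (n = 10) and negative controls (n = 10); each point is 1 library and bars are medians. The grey band, from 1797 to 3624 genes, is the range that both groups of neurons cover, and only 1 negative control lies in it.

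Neurons with zero rheobase had broader APs. The AP halfwidth had a lowest value of 0.70 ms, a median of 1.35 ms and a highest value of 3.37 ms at zero rheobase, and of 0.48, 0.85 and 1.26 ms at positive rheobase. The means were 1.40 ± 0.59 ms (SD, n = 18) and 0.86 ± 0.23 ms (SD, n = 10). Thus, 10 of the 18 neurons exceeded all 10 neurons with positive rheobase, and all 10 of the latter lay below the median of the former. AP features came from brief triangular current pulses and not from the steps that set the rheobase. They are nevertheless not independent of the grouping, because the study took the halfwidth relative to baseline. Firing or depolarization before the pulse can thus enter it, and its part in the difference was not tested.

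APs were also smaller at zero rheobase. The amplitude ranged from 48.4 to 113 mV with a median of 92.9 mV, against 85.3 to 127.5 mV with a median of 109.1 mV. In 17 of 18 neurons with zero rheobase the amplitude lay below the median of the other group, although the ranges overlapped. AP threshold had a median of −25.95 mV (−32.7 to −14.9 mV) at zero rheobase and of −32.8 mV (−40.2 to −13 mV) at positive rheobase. All 18 neurons with zero rheobase had a threshold above the median of the other group. The lowest of them did so by a narrow margin (−32.7 against −32.8 mV), and the count does not hold without cell_57. The highest threshold at positive rheobase, −13 mV in cell_77, lay above all 18.

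The membrane time constant was longer at zero rheobase. Its median was 22.7 ms (8.5 to 35.7 ms) compared to 14.45 ms (6.8 to 20.9 ms), and 11 of 18 neurons exceeded every neuron with positive rheobase. The means were 22.5 ± 8.5 ms (SD, n = 18) and 14.2 ± 4.1 ms (SD, n = 10). The listed membrane capacitance equals the time constant divided by the input resistance, within rounding, and is missing in cell_70, which lacks a resistance. It is therefore not a difference separate from that of the time constant. Capacitance had a median of 49 pF (25 to 159 pF, n = 17) against 27.5 pF (12 to 71 pF, n = 10). The difference of 21.5 pF was 12.5 pF with listed resting potentials only. In contrast, input resistance had medians of 549.2 MΩ (58.8 to 903.9 MΩ, n = 17) and 548.4 MΩ (196.1 to 875.9 MΩ, n = 10). The median sag of the voltage during hyperpolarizing current was 0.6 mV (−0.5 to 1.7 mV) at zero and 1.2 mV (0.1 to 2 mV) at positive rheobase, and 15 of 18 neurons lay below the latter median.

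The resting potential was listed for 9 of the 18 neurons with zero rheobase and for all 10 with positive rheobase. Where listed, it had a median of −56.4 mV (−69.7 to −51.5 mV) compared to −61.4 mV (−73.3 to −52.8 mV). The means were −57.6 ± 5.5 mV (SD, n = 9) and −62.4 ± 7.1 mV (SD, n = 10), a difference below the spread within each group. The labels do not say why the value is missing in 9 neurons. These 9 had the more deviating APs, with halfwidths of 1.21 to 1.97 ms (median 1.45 ms) against 0.70 to 3.37 ms (median 1 ms) in the 9 with a listed value. Among the latter, cell_79 stood apart with 3.37 ms, an amplitude of 48.4 mV and an input resistance of 58.8 MΩ. Limited to neurons with a listed resting potential, the difference of the median halfwidths was 0.15 ms instead of 0.50 ms, and that of the amplitudes −8 mV instead of −16.2 mV. The difference of the median time constants was 9.65 ms instead of 8.25 ms in this subset. Without cell_57, the difference of the medians was 3.30 mV instead of 5 mV for the resting potential, 4.35 mV instead of 6.85 mV for the threshold and −158.7 MΩ instead of 0.80 MΩ for the input resistance. With cell_78 and cell_85 included, the difference in input resistance was −63.9 MΩ.

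The AP latency at rheobase had a median of 39.2 ms (3.9 to 90.7 ms) at zero and of 13.4 ms (3.7 to 37.3 ms) at positive rheobase. It was read from the same current steps as the rheobase and is a description. With listed resting potentials only, the difference of the medians was −0.30 ms. Synaptic currents were close in both groups. Spontaneous excitatory currents had median amplitudes of 45.4 pA (20 to 92.5 pA, n = 18) and 39.65 pA (27.3 to 77.6 pA, n = 10) and median decay times of 1.87 and 1.94 ms. Spontaneous inhibitory currents had median amplitudes of 18.55 pA (12.8 to 29.1 pA, n = 18) and 19 pA (12.6 to 25.5 pA, n = 9).

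**Figure D2:**
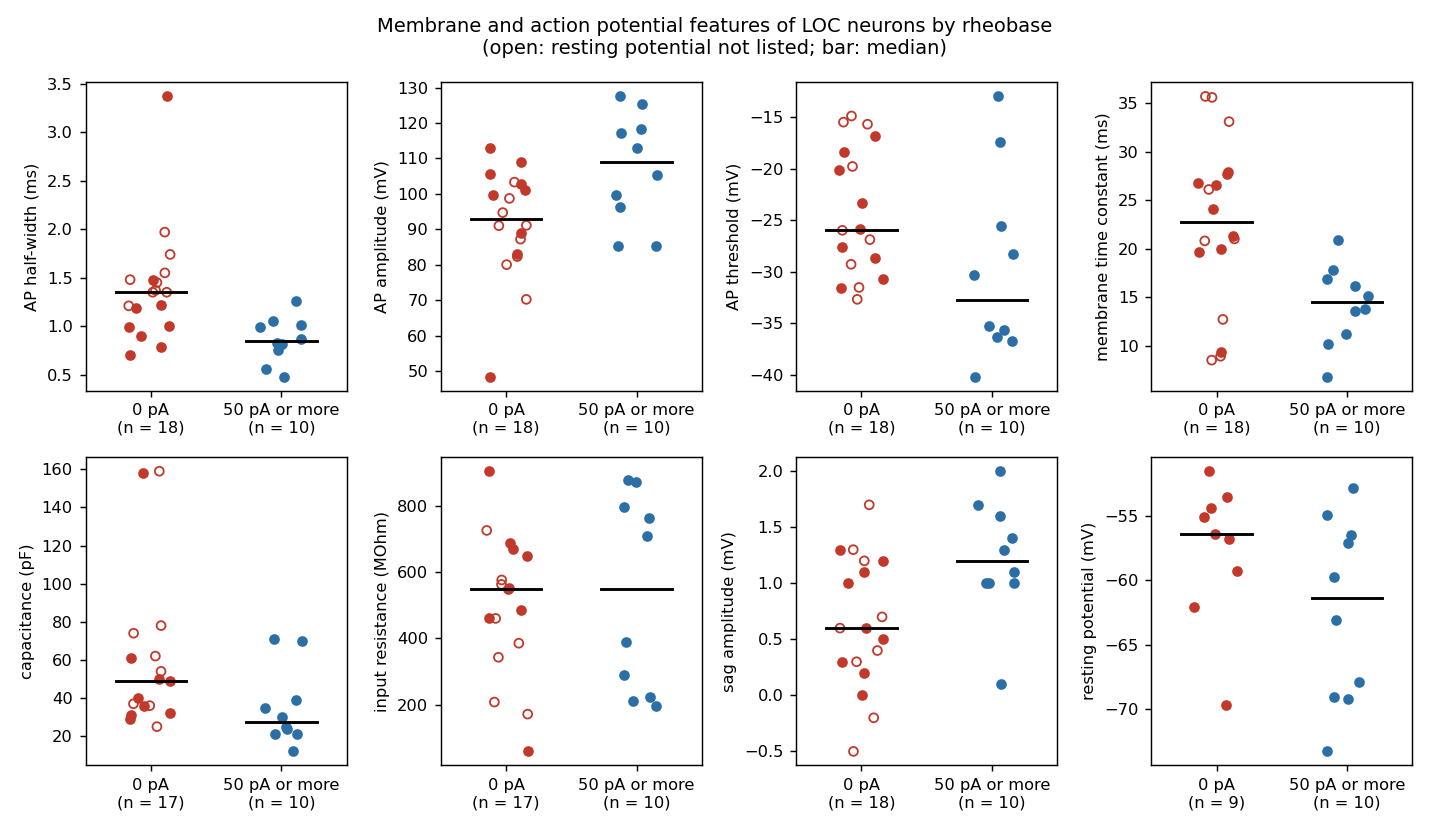
Features of 28 LOC neurons by rheobase, 1 panel per feature with its unit on the vertical axis; each point is 1 neuron, open points are neurons whose resting potential is not listed and bars are medians. AP halfwidth (medians 1.35 and 0.85 ms) and membrane time constant (22.7 and 14.45 ms) were shifted between the groups, whereas input resistance had almost the same median.

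In the transcriptome, 5365 of 38887 genes were detected in at least 5 of the 28 neurons. A gene was taken as different by size when its mean log2(TPM + 1) differed by at least 1 and its share of neurons by at least 25 points in the same direction. By this rule 145 genes (2.70%) were higher at zero rheobase and 437 genes (8.15%) were higher at positive rheobase. These numbers carry no test. The rule is uneven for rare genes, because a gene found in 5 neurons of 1 group only differs by 27.8 points if that is the larger group and by 50 points if it is the smaller one. They also moved with the number of detected genes per library. Among the 14 and 8 neurons within the shared range of 1797 to 3624 detected genes, 454 genes were higher at zero and 247 at positive rheobase, so the larger count changed sides. In this subset the median number of detected genes was 2645.5 at zero and 2281.5 at positive rheobase, which reverses the order found in all 28 neurons, so that the subset does not equalize it. Without cell_82, 225 and 366 genes passed. Over all 5365 genes the median difference was −0.17 on the log2 scale.

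**Figure D3:**
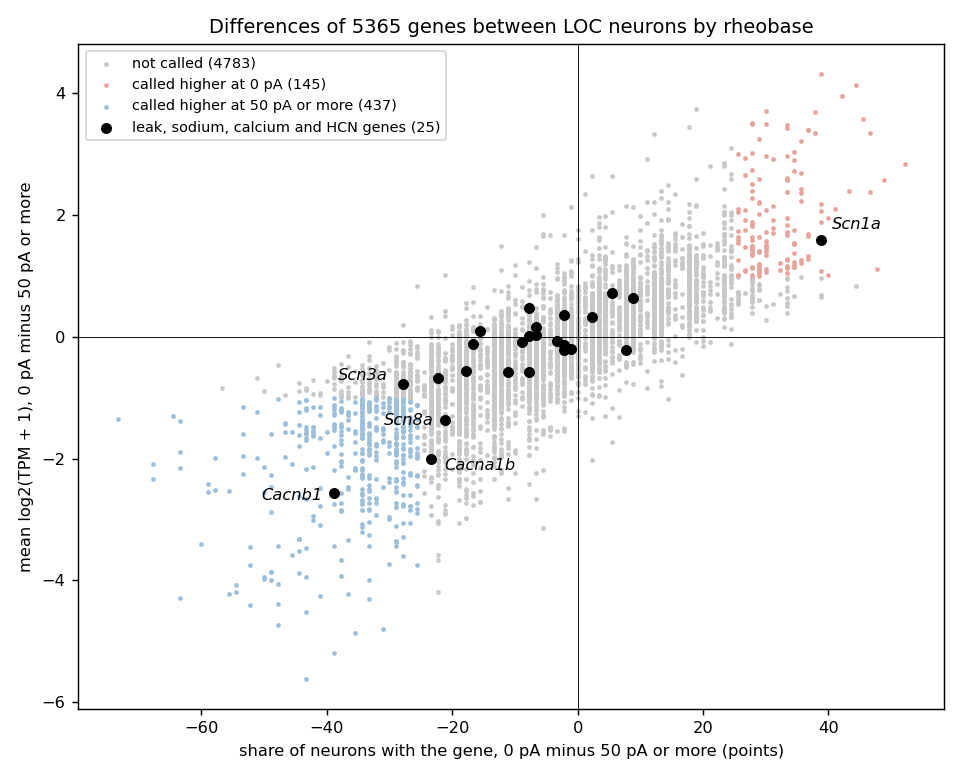
Difference in the share of neurons with a gene (horizontal axis, percentage points) against the difference in mean log2(TPM + 1) (vertical axis), both zero minus positive rheobase, for 5365 genes. The 145 and 437 genes past the size rule are colored, and of the 25 leak, sodium, calcium and HCN channel genes in black, Scn1a lies among the former and Cacnb1 among the latter.

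The channel gene with the largest share difference toward zero rheobase was the sodium channel gene Scn1a. Of 9 pore genes 5 reached the filter, 1 passed the size rule and the median difference was −0.08. Of all genes, 2.70% were called higher at zero and 8.15% at positive rheobase. At such shares, single calls or none in lists with few genes past the filter, here and below, say little about the list. Scn1a (ENSMUSG00000064329, chromosome 2 of GRCm38 from 66270778 to 66440840, minus strand) encodes Nav1.1, a channel known from fast-spiking neurons. Scn1a had a lowest value of 0, a median of 6.5 and a highest value of 102 TPM at zero rheobase, and of 0, 0.5 and 17 TPM at positive rheobase. It was detected in 16 of 18 neurons (88.9%, exact 95% interval 65.3 to 98.6%) and in 5 of 10 (50%, 18.7 to 81.3%). The ranges and the intervals overlapped, and the highest neuron with positive rheobase was cell_57, a library without Calca, Ucn and Isl1. The mean log2(TPM + 1) was 2.91 ± 1.94 (SD, n = 18) and 1.31 ± 1.58 (SD, n = 10), a difference of 1.60. All 9 neurons with a listed resting potential and 7 of the 9 without held Scn1a. The difference stayed past the size rule whichever neuron was left out (1.38 to 1.92), and it fell below it at a pseudocount of 10 TPM (0.65). In the negative controls 4 of 10 held Scn1a, with at most 12 TPM.

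Scn8a encodes Nav1.6, which is known to carry resurgent and persistent current, and pointed the other way. It was found in 7 of 18 neurons (highest value 25 TPM) and in 6 of 10 (highest value 221 TPM). The difference was −1.36 and −21.1 points and missed the size rule, but passed it among libraries with a shared range of detected genes (−1.80, −26.8 points), with cell_78 and cell_85 included (−1.46, −25 points) and without cell_77, cell_81, cell_84 or cell_86 (−1.62). It was also found in 2 negative controls with up to 450 TPM. Scn1a without Scn8a was found in 9 neurons with zero and 1 with positive rheobase, and Scn8a without Scn1a in 0 and 2. Both were present in 7 and 4 neurons.

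Scn3a, which encodes the developmentally early Nav1.3, was detected in 13 of 18 neurons and in all 10 with positive rheobase, with medians of 10.5 and 11.5 TPM (difference −0.77). It missed the size rule, but passed it toward positive rheobase within the shared range (−1.11, −28.6 points), at a pseudocount of 0.1 TPM (−1.55) and without cell_57 or cell_81 (−1.04 each). Scn2a (Nav1.2) was found in 11 of 18 and 7 of 10 neurons at a median of 2.5 TPM in both groups (difference −0.08), and Scn9a (Nav1.7) in 5 and 3 neurons. Hence, the pore genes did not differ in a common direction. A neuron held a median of 3 pore genes (0 to 5) at zero and 3.5 (2 to 4) at positive rheobase. Of the 8 beta subunits and FGF homologous factors, which tune gating of the pore, 4 reached the filter. Of these 0 passed the size rule, beside 2.70% and 8.15% of all genes. Fgf12 had the largest difference among them (10 of 18 and 5 of 10 neurons, 0.73), and passed the rule within the shared range (2.49, 33.9 points). Scn2b and Fgf14 were found in 4 and 5 of 18 neurons and in 3 of 10 each.

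Each gene of the sodium leak complex was found in 50% or fewer of the neurons in either group. Nalcn, the gene of the pore, was found in 7 of 18 neurons (38.9%, 17.3 to 64.3%) and in 5 of 10 (50%, 18.7 to 81.3%), with a difference of −0.57. Its highest values were 38941 and 8844 TPM, and 1 negative control held 29558 TPM. Nalcn stands near the top of the table, where TPM of detected genes runs high, so its values were compared only within the gene. Unc79 and Unc80 encode large proteins that hold the pore at the membrane. They were found in 7 and 6 of 18 neurons and in 3 and 4 of 10, with differences of 0.65 and 0.17. Unc79 was also found in 2 negative controls with up to 1230 TPM, and Unc80 in 0. Fam155a, an auxiliary subunit, was found in 5 and 3 neurons (−0.13). None of the 4 leak genes passed the size rule, beside 2.70% and 8.15% of all genes. The two-pore-domain potassium channels, which set the resting leak, were rarely seen. Of 14 genes, 4 were detected at all (Kcnk1, Kcnk2, Kcnk5 and Kcnk10), each in at most 3 neurons, and 0 reached the filter.

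**Figure D4:**
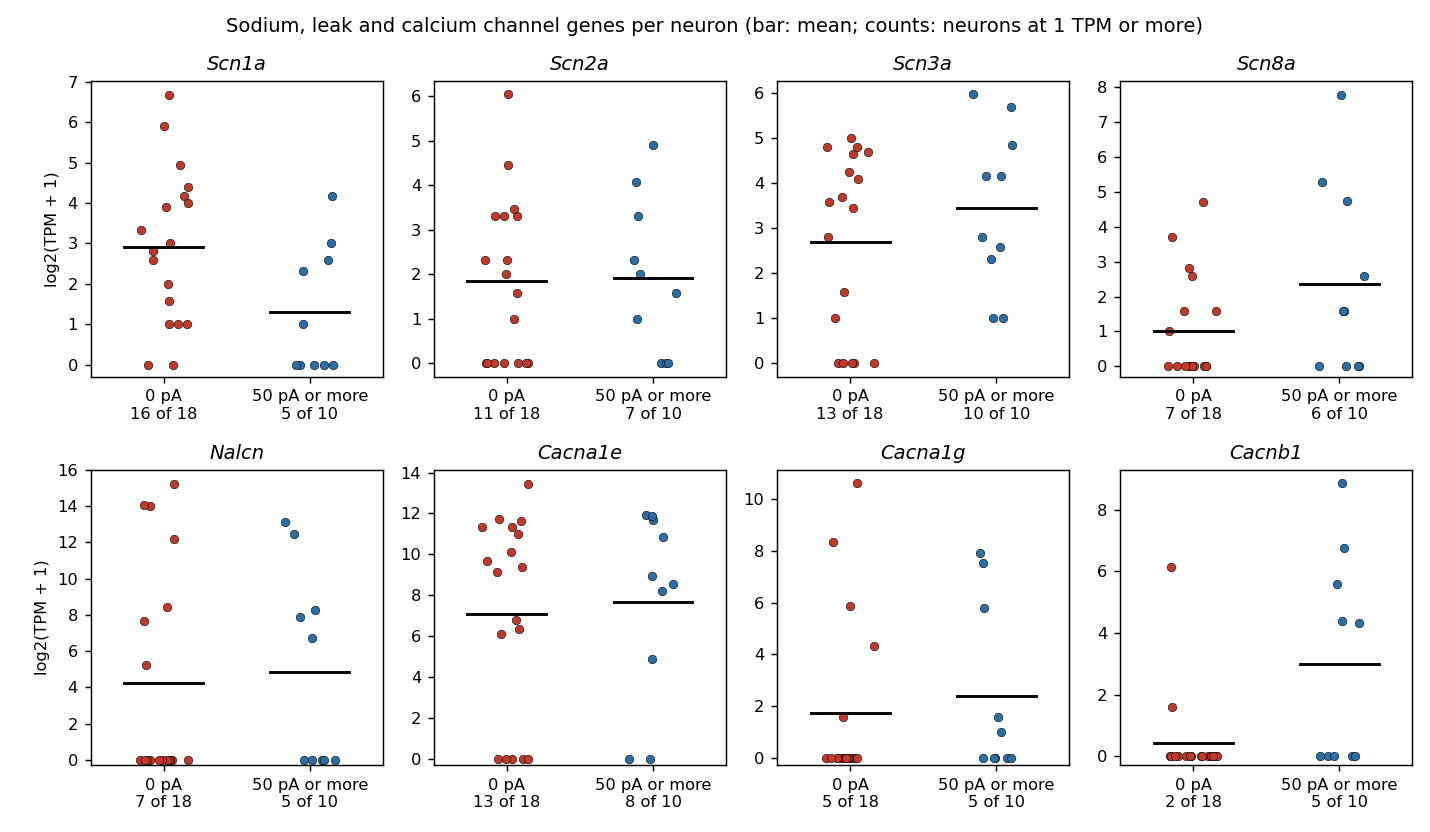
Log2(TPM + 1) per neuron of 8 sodium, leak and calcium channel genes in LOC neurons with a rheobase of 0 pA (n = 18) and 50 pA or more (n = 10); each point is 1 neuron, bars are means, and the number of neurons with the gene stands under each group. Scn1a was found in 16 of 18 and 5 of 10 neurons and Cacnb1 in 2 of 18 and 5 of 10, while for Nalcn both groups held neurons at 0 and neurons at high values.

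Among calcium channels, 5 of 10 pore genes reached the filter (median difference −0.58). Of these 0 passed the size rule, beside 2.70% and 8.15% of all genes. Cacna1e encodes the R-type channel Cav2.3 and was the pore gene found in most neurons. It was detected in 13 of 18 (highest value 11290 TPM) and 8 of 10 neurons (highest value 3825 TPM), with a difference of −0.58. Cacna1g encodes the T-type channel Cav3.1, which opens near rest. It was present in 5 of 18 and 5 of 10 neurons (−0.67, −22.2 points). It passed the rule toward positive rheobase with listed resting potentials only (−1.90, −38.9 points) and without cell_62 or cell_72. It was found in 4 of the 9 neurons with zero rheobase and no listed resting potential and in 1 of the 9 others. Cacna1b (N-type, Cav2.2) was found in 3 and 4 neurons and had the largest difference among the pore genes (−2.01, −23.3 points). It fell short of the size rule by its share. It passed with cell_78 and cell_85 included (−2.15, −25 points) and in 9 of 28 runs with 1 neuron left out, namely those without cell_58, cell_64, cell_74, cell_66, cell_69, cell_77, cell_80, cell_81 or cell_84. Cacna1a and Cacna1d were each found in 4 of 18 neurons, and in 3 and 2 of 10.

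The 16 auxiliary subunit genes gave 6 past the filter and 1 past the size rule, Cacnb1 (ENSMUSG00000020882, chromosome 11 of GRCm38 from 98001508 to 98023034, minus strand). This is 16.7% of the 6, beside 8.15% of all genes higher at positive rheobase. Cacnb1 encodes the beta1 subunit, which brings the pore to the membrane. At zero rheobase 16 of 18 neurons were at 0, and cell_73 and cell_76 had 2 and 69 TPM. At positive rheobase the lowest value was 0, the median 9.5 and the highest 460 TPM. It was thus found in 2 of 18 (11.1%, 1.38 to 34.7%) and 5 of 10 neurons (50%, 18.7 to 81.3%), a difference of −2.56. It was at 0 in all 10 negative controls and stayed past the rule whichever neuron was left out (−2.90 to −1.91), but not among libraries with a shared range of detected genes (−23.2 points). The related Cacnb2 and Cacnb4 had differences of 0.03 and −0.57, Cacna2d1 −0.12, and Cacng2 and Cacng4 0.09 and −0.21.

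Of 4 HCN genes 0 passed the size rule. Of 27 TRP channel genes 6 reached the filter. Trpv2, a cation channel, passed the size rule, with 5 of 18 neurons (highest value 368 TPM) against 0 of 10, which allows a share of up to 30%. This call rested on 5 neurons, and leaving out any 1 of them (cell_58, cell_61, cell_62, cell_68 or cell_72) ended it. It was also lost with listed resting potentials only and with detection at 10 TPM. Of 68 potassium channel genes outside the two-pore family 10 reached the filter and 0 passed the size rule. The Kv1, Kv4 and Kv7 group had a median difference of 0.18, with Kcna1 (Kv1.1) in 9 of 18 and 3 of 10 neurons (0.73). Over all ion channel lists, 41 genes reached the filter, of which 2 (4.88%) were higher at zero and 1 (2.44%) at positive rheobase. The corresponding shares of all genes were 2.70% and 8.15%.

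Pumps and chloride transporters gave calls in 1 direction, toward positive rheobase. Of 8 chloride channel and transporter genes past the filter 2 (25%) passed the size rule, and of 6 sodium pump genes 2 (33.3%). Of all genes, 8.15% were higher at positive rheobase. One of the 2 pump genes, Atp1b2, encodes the beta2 subunit. It had medians of 0 and 15 TPM and was found in 7 of 18 and 8 of 10 neurons (−1.28). It missed the rule without cell_80 (−0.93), at a pseudocount of 10 TPM (−0.48) and with detection at 10 TPM (−16.7 points). Atp1b1, the beta1 subunit, was found in all 28 neurons (0.78).

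Slc12a5 encodes KCC2, the transporter that extrudes chloride from mature neurons. Its lowest, median and highest values were 0, 1.5 and 1900 TPM at zero rheobase and 0, 210.5 and 1636 TPM at positive rheobase. It was found in 9 of 18 (50%, 26 to 74%) and 8 of 10 neurons (80%, 44.4 to 97.5%), a difference of −2.98. The groups overlapped throughout, and 2 negative controls held up to 6314 TPM. The share missed 25 points among libraries with a shared range of detected genes (−17.9 points), with listed resting potentials only and without cell_57 and cell_76, whereas the log2 difference kept its sign. Slc12a2, which encodes the chloride importer NKCC1, was found in 5 and 2 neurons (0.05). Clcn4, an intracellular chloride exchanger, was found in 5 of 18 and 6 of 10 neurons (−2.34), and missed the rule within the shared range (−21.4 points). It was found in 2 negative controls with up to 44638 TPM.

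Among the LOC markers, the peptide gene Calcb differed most. Of 12 markers past the filter 2 (16.7%) were higher at zero and 1 (8.33%) at positive rheobase, beside 2.70% and 8.15% of all genes. Calcb (ENSMUSG00000030666, chromosome 7 of GRCm38 from 114718643 to 114723365, plus strand) encodes the second CGRP peptide. It had a lowest value of 0, a median of 90.5 and a highest value of 260 TPM at zero rheobase and of 0, 0 and 94 TPM at positive rheobase. It was found in 12 of 18 (66.7%, 41 to 86.7%) and 3 of 10 neurons (30%, 6.67 to 65.2%), a difference of 3.40. It passed the size rule whichever neuron was left out (3.20 to 3.99) and in the 8 other alternatives. Its neighbor Calca (chromosome 7 from 114631478 to 114636357, minus strand) was found in 17 of 18 and 9 of 10 neurons. The medians were 1448.5 TPM (0 to 4484 TPM) and 546 TPM (0 to 2155 TPM), a difference of 1.48 in level without a difference in share. In each group 1 neuron was at 0, cell_76 and cell_57, which weighs more in the mean of the smaller group. Apart from cell_57, log2(TPM + 1) of Calca at positive rheobase was 7.42 to 11.1. The difference is therefore smaller without cell_57. Both genes are close relatives, and the authors counted primary alignments only, so a read that matches both was given to 1 of them. Calca was also found in 6 negative controls, with at most 315 TPM, and Calcb in 1.

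Ucn, the gene of urocortin, had medians of 30 TPM (0 to 254 TPM) and 10 TPM (0 to 48 TPM) and was found in 15 of 18 and 8 of 10 neurons (1.14). This difference includes the 0 TPM of cell_57 and is smaller without that neuron. Ucn passed the size rule only with detection at 10 TPM (27.8 points), among the alternatives run. Nxph1, a secreted synaptic ligand of neurexins, was found in 14 of 18 and 5 of 10 neurons, with medians of 20 and 0.5 TPM (1.43). It missed the rule at a pseudocount of 10 TPM or without any 1 of the 5 neurons with positive rheobase that lacked it (cell_66, cell_77, cell_80, cell_81 and cell_86). Ddc, an enzyme of dopamine synthesis, was in the opposite order, with 4 of 18 and 5 of 10 neurons (−2.78). It missed the rule without cell_66, cell_77, cell_80, cell_82 or cell_86, within the shared range of detected genes and with detection at 10 TPM. Th, the preceding enzyme, was found in 4 and 3 neurons (−0.19). The cholinergic genes Slc5a7 and Chat were found in 10 and 3 of 18 neurons and in 5 and 2 of 10, with differences of −0.02 and 0.03, and the transcription factors Isl1 and Gata3 differed by 0.19 and −0.27.

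**Figure D5:**
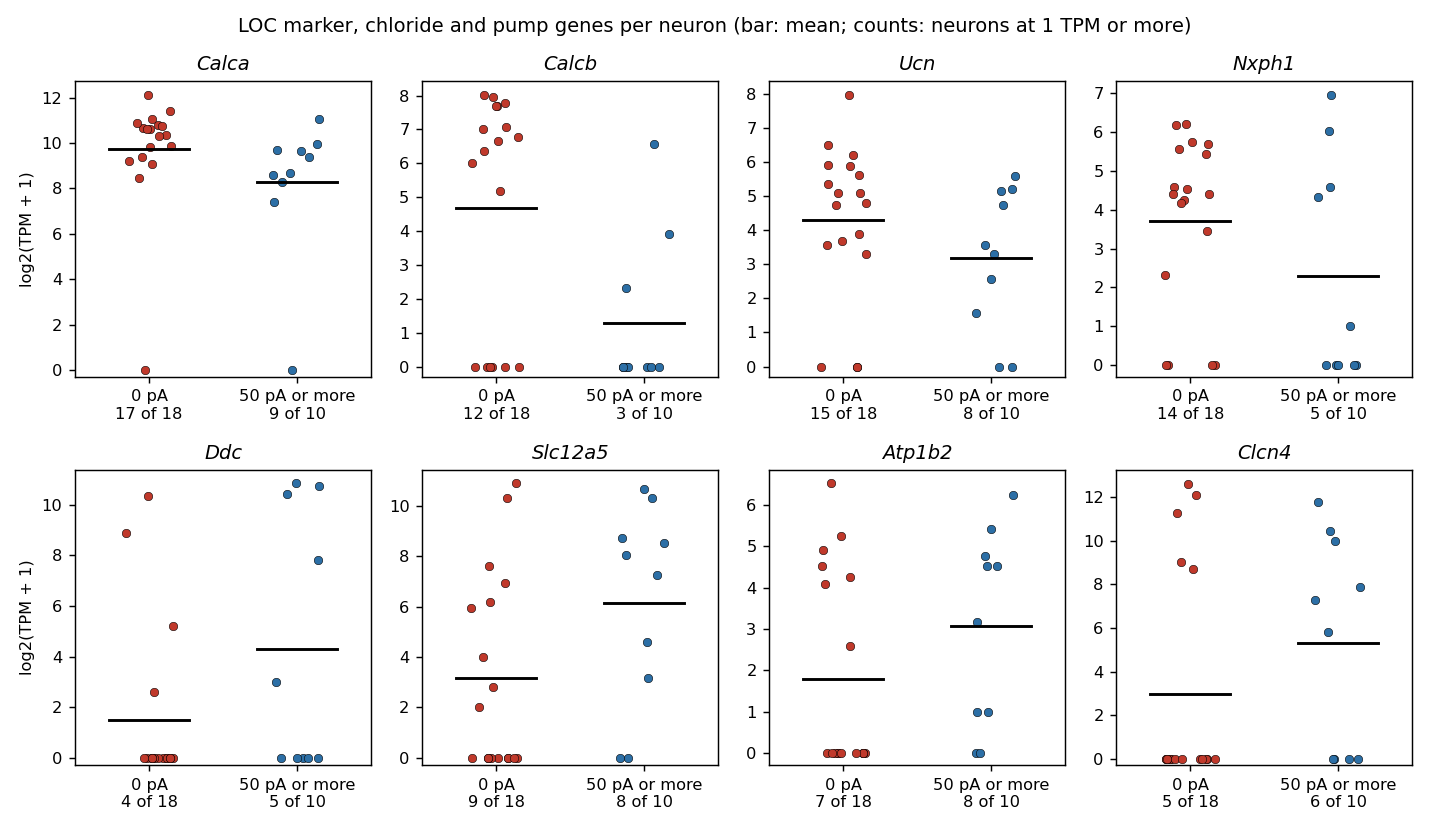
Log2(TPM + 1) per neuron of 5 LOC marker genes and 3 chloride or pump genes in LOC neurons with a rheobase of 0 pA (n = 18) and 50 pA or more (n = 10); each point is 1 neuron, bars are means, and the number of neurons with the gene stands under each group. Calcb was found in 12 of 18 and 3 of 10 neurons and Slc12a5 in 9 of 18 and 8 of 10.

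Of 18 activity-regulated genes 10 reached the filter and 0 passed the size rule, beside 2.70% and 8.15% of all genes. With 10 genes, an absence of calls says little at such shares. Of the 10, 6 had a higher and 4 a lower mean at zero rheobase (median difference 0.20). Single genes of this list were not followed through the alternatives. Fos was found in 13 of 18 and 7 of 10 neurons with medians of 411.5 and 256.5 TPM (1.19). Fosb was found in 6 and 1 neurons (1.42, 23.3 points). Bdnf was found in 5 neurons with zero rheobase (highest value 48 TPM) and was listed at 0 in the other group. Its share difference met the size rule, but its log2 difference did not.

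The 10 genes with the largest difference in share toward zero rheobase included Rheb, Zcrb1, Sel1l, Dennd6b, Rsl1d1, Setdb1, Fxyd6, Ap1m1 and Snap91. Rheb, the small GTPase that activates mTORC1, was found in 13 of 18 and 2 of 10 neurons (2.85). Fxyd6, a regulator of the sodium pump, was found in 15 and 4 neurons with medians of 23.5 and 0 TPM (2.39). Snap91, a clathrin adaptor of synaptic vesicle recycling, was found in 11 neurons with up to 80 TPM and in 2 at 1 TPM (2.10). Setdb1, a histone methyltransferase, was found in 8 neurons and listed at 0 in all 10 others. Rsl1d1, a ribosome biogenesis factor found in 10 and 1 neurons, was also found in 6 of 10 negative controls with up to 2396 TPM. Zcrb1 and Dennd6b were each found in 4 controls, Snap91 and Sel1l in 3, Rheb and Ap1m1 in 2, Fxyd6 in 1 and Setdb1 in 0. The highest control values were 280 TPM for Snap91 and 2230 TPM for Sel1l. Sel1l, of the ER degradation machinery, passed at 1.11 and missed the rule in 12 of 28 runs with 1 neuron left out, among them that without cell_57 and that without cell_76.

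Toward positive rheobase, the 10 genes were Wnk1, Lgr4, Nucks1, Tspoap1, Med31, Wdr45b, Pgp, Spock2, Maf1 and Alg2. Wnk1, a kinase that controls cation-chloride cotransporters, was found in 9 of 10 neurons against 3 of 18, but its highest values were only 10 and 1 TPM (−1.35). It was also found in 5 negative controls with up to 48 TPM. Lgr4, a receptor for R-spondins, was found in 9 of 10 and 4 of 18 neurons with medians of 10.5 and 0 TPM (−2.33), and in 1 negative control. Med31, a Mediator subunit, was found in 8 and 3 neurons with medians of 141.5 and 0 TPM (−4.28) and in no negative control. Maf1, a repressor of RNA polymerase III, was found in 6 of 10 neurons with up to 419 TPM and listed at 0 in all 18 neurons with zero rheobase, which allows a share of up to 16.7%. Apart from Sel1l, all of these 20 genes passed the size rule in all 28 runs with 1 neuron left out. Because they were chosen for the largest share differences, 1 neuron could not bring a share difference below 25 points. Only the limit on the log2 difference could fail in these runs. In the 8 other alternatives, 14 of the 20 missed the rule at least once. Maf1 missed it within the shared range and with detection at 10 TPM, Setdb1 with listed resting potentials only, and Wnk1 at a pseudocount and at a detection threshold of 10 TPM.

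Summed markers of other cells overlapped between the groups. The summed TPM of 10 oligodendrocyte markers ranged from 1 to 8457 at zero and from 54 to 25792 at positive rheobase, that of 10 astrocyte markers from 0 to 13495 and from 1 to 11774. Of 9 microglia markers past the filter 8 had a higher mean at zero rheobase (median difference 0.80) and 0 passed the size rule. Their sum ranged from 0 to 3330 TPM and from 0 to 672 TPM, with medians of 191 and 98.5 TPM. Of 10 vascular markers only Pecam1 was detected. Pan-neuronal genes had a higher mean at positive rheobase in 8 of 10 cases (median difference −0.80), with Tubb3 at medians of 1 and 17.5 TPM (−1.89). The part of other cells and of the yield of RNA in the differences above was not tested.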

How the data were processed

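Cytoplasm of patched LSO neurons was amplified with a modified Smart-seq2 protocol and sequenced. The submitters' processing notes name Trim Galore 0.4.2, STAR, Picard 1.115 and featureCounts on mm10. The authors deposited 1 table of TPM that were rounded to whole numbers and are therefore treated as a score. Read counts were not used here, so depth is unknown. The table does not keep levels of different genes comparable: among genes past the filter, the median of the mean TPM was 814 in rows 1 to 500 and 2.50 after row 15000. Therefore genes were compared with themselves across neurons only. Values that round to 0 count as not detected, which limits genes of late rows most, and without strand, overlapping antisense transcripts cannot be told apart.

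Groups, resting potential, AP and synaptic features came from the sample labels. The link between recording and library rests on the shared name of neuron and column and could not be checked for LOCs. Gene symbols (37570 of 38887) and coordinates came from the Gencode vM21 annotation of GRCm38, the same assembly as mm10. One of 5 genes listed for the leak complex and 1 of 13 LOC markers had no row by symbol.

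For each gene detected (1 TPM or more) in at least 5 of 28 neurons, the share of neurons and the mean log2(TPM + 1) were compared. Named were all leak, sodium, calcium and HCN channel genes past the filter, genes of the other channel, pump and chloride lists past the size rule, the 10 genes with the largest share difference in each direction, and Calca, Ucn and Spp1. Not every gene selected in this way is reported here. Other members of the lists were named after their values were seen. Intervals of shares are exact (Clopper-Pearson, 95%), and the limit for 0 neurons is 3 divided by the number of neurons; both cover counting error only. The members and lists were chosen with earlier results of these data known. Alternatives were another detection threshold, pseudocount, scaling, filter or call limit, subsets of neurons and leaving out each neuron. Scripts were tested on simulated data and ran under SciPy 1.17.1, NumPy 2.4.6, matplotlib 3.10.9 and pandas 2.3.3 in Python 3.11.15.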

Additional observations from a re-analysis of the deposited data

Results flagged for a closer look

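In the group with positive rheobase, 66 sets of values were examined for a single neuron far from the others, and 7 were found. The limit used gives about 1 in 20 by chance for normally distributed values. Many of the sets are TPM with many zeros, for which this rate does not hold, so the 7 cannot be compared with it. For the sag amplitude this was the lowest value, 0.1 mV in cell_69, against 1 to 2 mV in the other 9. For Calca it was the 0 TPM of cell_57, the neuron with a rheobase of 300 pA, which also lacked Ucn and Isl1. The other 5 were highest values of log2(TPM + 1). They were 4.75 for Fam155a in cell_80, 8.26 for Fgf14 in cell_81, 3.32 for Cacna1a in cell_65, 6.70 for Rheb in cell_69 and 10.3 for Rsl1d1 in cell_82. For Rsl1d1 the other 9 neurons were at 0, so that it was flagged by construction. The group with zero rheobase has more than 10 neurons and was not examined in this way.

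One negative control, NC6, held 3104 detected genes, where the other 9 held 285 to 1271. It had 75 TPM of Spp1 and 23 TPM of Kcnh7, and 0 TPM of Calca and Ucn.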

How the results depend on the processing

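The counts of 145 and 437 genes (higher at zero and at positive rheobase) were 60 and 162 with a pseudocount of 10 TPM, 79 and 225 with a filter of 10 neurons, and 54 and 166 with a call limit of 2 on the log2 scale. Each of these settings counts fewer genes by construction. With listed resting potentials only, the counts were 316 and 421, and within the shared range of detected genes the counts were 454 and 247. Of these 454 and 247 genes, 118 and 188 were among those called in all 28 neurons. Leaving out each neuron gave 132 to 225 and 366 to 554 genes, with the highest and the lowest of them, 225 and 366, without cell_82. Median-ratio scaling over the 514 genes detected in at least 20 neurons gave 146 and 440 genes.

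Among the electrophysiological differences, the AP latency at rheobase moved by more than the SD over neurons, from 25.8 to −0.30 ms with listed resting potentials only. The input resistance changed sign, from 0.80 to −158.7 MΩ without cell_57. The cause was not tested. Without cell_57 and cell_76, a setting chosen after seeing the data, 167 and 480 genes were called, and the halfwidths differed by 0.48 ms. Of 30 genes past the size rule that the rule for named genes or the LOC marker list covers, 7 (among them Ap1m1, Calcb, Med31, Rheb, Rsl1d1 and Zcrb1) passed it in all 8 alternatives on genes, and 24 passed it whichever neuron was left out. Among the 30 are the 20 genes chosen for the largest share differences, which leaving out 1 neuron moves little. A pseudocount of 10 TPM ended 15 of the 30 calls and detection at 10 TPM ended 11. The shared range of detected genes and the listed resting potentials ended 5 each. For Sel1l the share difference changed sign to −2.22 points when detection was set at 10 TPM. The medians of the channel lists moved by less than the spread of their members under scaling. The detection limit of 1 TPM, an unknown depth and 10 neurons in the smaller group limit what the shares can resolve.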
